A study of Rattus norvegicus with 12 samples.

Results

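Creatine kinase, adenylate kinase and myoglobin genes were examined in adult rat ventricular myocytes (ARVMs) that overexpressed NR4A2. The 9 genes were all transcripts listed under Ckm, Ckb, Ckmt2, Ak1, Ak3, Ak4, Gatm, Gamt, and Mb, which gave 1 transcript per gene among the 18752 transcripts of 17301 gene names in the data. ARVMs are contractile heart muscle cells, isolated here from Sprague Dawley rats and kept in serum-free medium after plating. A group of 6 samples was transduced with Ad-h-NR4A2, an adenovirus with the open reading frame of human NR4A2 behind the cytomegalovirus promoter, and the control group of 6 samples received Ad-GFP, an adenovirus for enhanced green fluorescent protein. Both groups received a multiplicity of infection of 50, and RNA was collected 48 h later. The culture medium of both groups held 2,3-butanedione monoxime, an agent that inhibits contraction. Samples of both groups carry the numbers 24 to 29, and the study states that its 6 experiments used ARVMs of different rats.

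Heart muscle splits and remakes its ATP continuously and keeps only a small store of it. Creatine kinases transfer phosphate between ATP and creatine, so that phosphocreatine can carry and buffer high-energy phosphate between mitochondria and myofibrils, whereas adenylate kinases interconvert ATP, ADP, and AMP. AMP in turn activates AMP-activated protein kinase (AMPK). Myoglobin is the heme protein that binds oxygen in the cytosol of heart and oxidative skeletal muscle.

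The depth implied by the low FPKM values was 18800000 to 28000000 fragments per sample. The level listed under the rat gene Nr4a2 rose from 0.884 ± 0.309 to 524 ± 70.3 FPKM (SD, n = 6 per group). The transduction labels thus fit this level in every sample. Reads were aligned to the rat genome, so this level cannot tell mRNA of the human reading frame from mRNA of the rat gene. Values are FPKM, that is, fragments scaled to transcript length and to the mapped fragments of the sample. Of 10950 genes above 0 in all samples, 15.2% were called, meaning an adjusted p below 0.05 (limma on log2(FPKM + 0.1), Benjamini-Hochberg) and a ratio of group means of at least 1.5. Cardiomyocyte markers were high in all samples, but 4 of the 6 (Myh6, Myh7, Tnnt2, and Ryr2) fell at an adjusted p below 0.05, as did 21.7% of all genes tested. The FPKM of all 6 summed to 17688 to 22842 in Ad-GFP and 15658 to 19261 in Ad-h-NR4A2 samples. Summed markers ranged from 9.12 to 30.4 and from 5.84 to 27.1 FPKM for fibroblasts, where Col3a1 fell and Col1a2 was listed at 0 throughout, and from 6.28 to 22.7 and from 5.33 to 21.9 for endothelial cells, none of whose 6 markers passed the test. With the number of the sample as a block, Tnni3 among cardiomyocyte markers, Col1a1 and Pdgfra among fibroblast markers, and Kdr among endothelial markers passed as well. Each of these was lower in the mean of Ad-h-NR4A2 samples. Smooth muscle markers summed to 7.07 to 20.3 and 6.86 to 16.5 FPKM, with a fall of Myh11, and glial markers to at most 1.49. Erythroid markers stayed at or below 0.443 FPKM in sum, with Hbb-b1 at 0 throughout. Macrophage markers summed to 6.04 to 17.3 FPKM in Ad-GFP and 37.2 to 44.6 in Ad-h-NR4A2 samples, nearly all from Csf1r, which rose, while Cd68 averaged 0.463 and 0.482 FPKM. The part of these shifts in the results for the 9 genes was not tested.

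All 9 genes were above 0 in all samples and entered the test. Ak1, Ak4, and Ckm fell and Ak3 rose at an adjusted p below 0.05, and the other 5 genes did not pass. These were 4 of 9 genes, where 40.9% of all genes tested passed at any ratio (21.7% lower and 19.3% higher). Ak1 alone was called, as 1 of 9, where 7.24% of all genes were called lower. The Ad-h-NR4A2 values lay wholly outside the Ad-GFP range for Ak1 and Ak4, which 21.5% of all genes did in either direction. The median log2 fold change of the 9 genes was -0.10, against -0.02 over all genes tested, and the median absolute change was 0.16 against 0.20. Their shares of passed genes were thus close to those of the whole transcriptome.

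**Figure D1:**
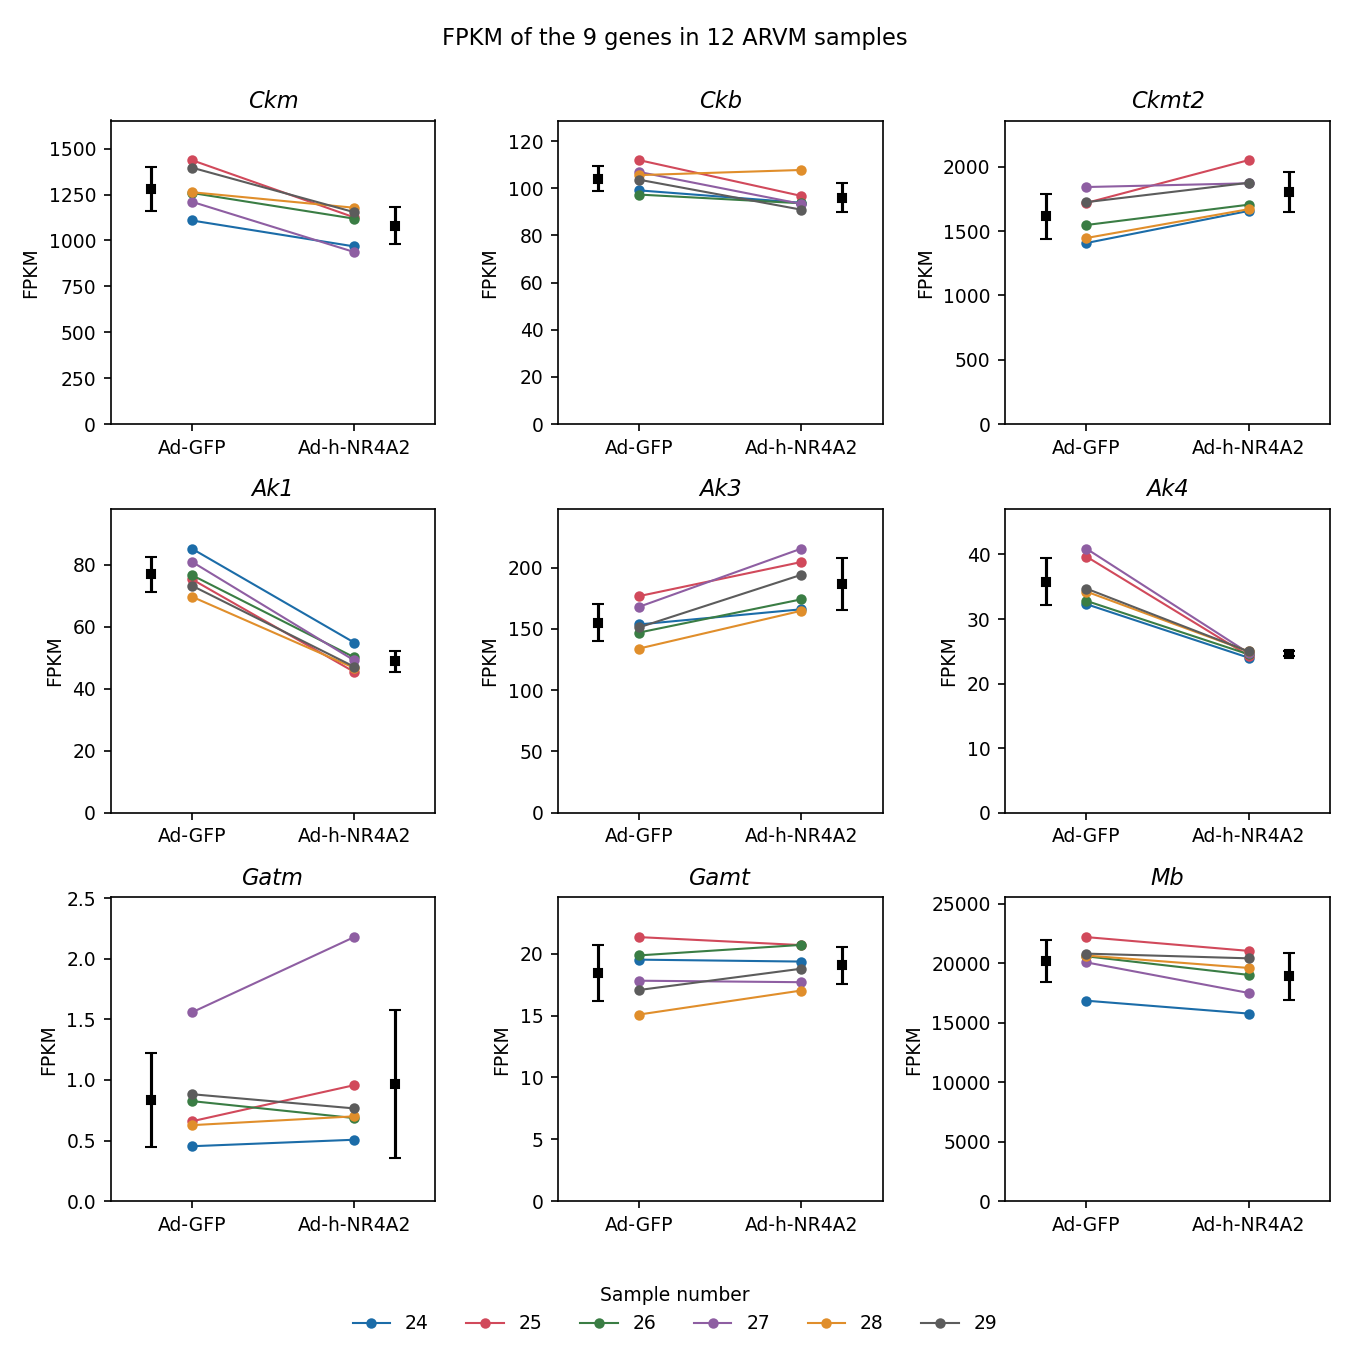
FPKM of the 9 genes in each of the 12 samples, on axes that start at 0. Colored points are single samples, lines join samples with the same number, and black squares with bars are the mean ± SD of 6 samples. Ak1 and Ak4 lay lower in all Ad-h-NR4A2 samples than in any Ad-GFP sample, and the groups overlapped for the other 7 genes.

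The 9 genes spanned a wide range of mRNA levels. By mean FPKM over the 12 samples, Mb had rank 1 of the 10950 genes tested. Ckmt2 had rank 52 and Ckm rank 94, followed by Ak3 (rank 623), Ckb (1048), Ak1 (1673), Ak4 (3018), Gamt (4160), and Gatm (9058). Neighbors in this order did not overlap in any sample, except Ckmt2 and Ckm, whose ranges crossed although Ckmt2 was the higher in each sample. The order was the same in the mean of either group.

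Letters upstream of the transcription start were read from RefSeq (GRCr8) for 8 of the 9 genes, as Ak1 had no entry. The response element to which NR4A receptors bind as monomers, AAAGGTCA, was sought on both strands of the 250 bases before the start, as were AGGTCA, the hexamer contained in it, and the E-box CANNTG, which reads alike on both strands and is bound by basic helix-loop-helix factors. AAAGGTCA occurred in 0 of the 8 windows and in 1.24% of 33469 rat promoters. AGGTCA occurred in 1 of 8, against 14.1% of all, and the E-box in 4 of 8 (Ckm, Ckmt2, Gatm, and Mb), against 65.5% of all. TATAAA, sought on the coding strand, occurred upstream of Ckb and Mb and in 8.06% of all. Shown are the windows of Ckm and Ckmt2, the most abundant creatine kinase mRNAs, whose estimates lay on opposite sides of 0, and of Ak4, which has the AGGTCA match. Ckm lies on the plus strand (chr1:88189211-88189460), Ckmt2 on the minus strand (chr2:24845512-24845761), and Ak4 on the plus strand (chr5:121154886-121155135). Each sequence reads 5′ to 3′ toward the start. Capitals mark E-boxes in Ckm and Ckmt2 and, in Ak4, the reverse complement of AGGTCA, which begins at position -239 from the start.
Ckm: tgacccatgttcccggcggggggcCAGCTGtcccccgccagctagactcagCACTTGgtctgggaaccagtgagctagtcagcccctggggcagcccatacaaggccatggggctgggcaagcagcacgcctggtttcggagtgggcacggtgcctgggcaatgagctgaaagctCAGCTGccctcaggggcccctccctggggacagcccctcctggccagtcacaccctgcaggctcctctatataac
Ckmt2: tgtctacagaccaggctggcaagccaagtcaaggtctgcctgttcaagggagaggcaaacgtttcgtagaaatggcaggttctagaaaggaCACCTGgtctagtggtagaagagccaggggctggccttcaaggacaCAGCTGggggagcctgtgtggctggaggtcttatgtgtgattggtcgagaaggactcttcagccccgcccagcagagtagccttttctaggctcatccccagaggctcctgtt
Ak4: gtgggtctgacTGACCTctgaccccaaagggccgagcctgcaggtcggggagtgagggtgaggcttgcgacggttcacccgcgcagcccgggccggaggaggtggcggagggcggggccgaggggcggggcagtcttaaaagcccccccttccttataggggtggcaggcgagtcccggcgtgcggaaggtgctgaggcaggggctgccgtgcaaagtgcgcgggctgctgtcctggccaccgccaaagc
The Ckm window holds E-boxes that begin at -226, -199, and -75, and the Ckmt2 window at -159 and -113. Whether these motifs bear on the change of either gene was not tested. These matches describe letters in 1 window per gene and are not binding sites measured here.

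Among the 3 creatine kinase genes of the 9, Ckm fell modestly, whereas the estimates for Ckmt2 and Ckb were smaller still. Ckm (NM_012530, chromosome 1, 81587857 to 81598113, Rn5) encodes the cytosolic muscle enzyme, part of which is bound to the myofibril. Ckm FPKM was 1109 at the lowest, 1261 at the median, and 1438 at the highest in Ad-GFP samples, and 937, 1123, and 1178 in Ad-h-NR4A2 samples. The ranges overlapped, yet the Ad-h-NR4A2 sample was the lower of all 6 same-numbered pairs, at 0.774 to 0.933 of its partner. Mean Ckm FPKM was 1279 ± 121 and 1080 ± 102 (SD, n = 6 per group). On the log2 scale Ckm changed by -0.24 (SE 0.08, adjusted p = 0.0191, limma with Benjamini-Hochberg). A 2-sided exact permutation test that ignored the sample numbers gave p = 0.0130. Mean Ckm FPKM fell by 15.5%. In these bulk samples, less mRNA per cell and fewer cells that express a gene cannot be told apart. Tnnt2, the cardiac troponin T gene, was at 0.833 of its Ad-GFP mean and Myh6 at 0.678, beside 0.845 for Ckm. The other cardiomyocyte markers were at 0.563 (Myh7), 0.624 (Ryr2), 0.857 (Tnni3), and 0.941 (Actc1).

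Ckmt2 (NM_001127652, chromosome 2, 40627924 to 40657402) encodes the sarcomeric mitochondrial creatine kinase, which sits between the mitochondrial membranes. Its FPKM was 1407 at the lowest, 1633 at the median, and 1842 at the highest in Ad-GFP samples, and 1657, 1788, and 2052 in Ad-h-NR4A2 samples. The ranges overlapped widely, but the Ad-h-NR4A2 sample was the higher of all 6 pairs, at 1.02 to 1.19 times its partner. Group means were 1614 ± 174 and 1805 ± 155 FPKM (SD, n = 6 per group). The log2 fold change of 0.16 (SE 0.08) had an adjusted p of 0.104 in limma, which became 0.00275 when the number of the sample entered as a replicate block. It also passed, at an adjusted p of 0.0475, without Ad-GFP sample 27, the highest of the control group.

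Ckb (NM_012529, chromosome 6, 144270901 to 144273776), the brain-type cytosolic enzyme that is more prominent in the fetal than in the adult heart, was the least abundant of the 3 creatine kinase mRNAs among the 9 genes. Ckb FPKM was 97.4 at the lowest, 104.6 at the median, and 112 at the highest in Ad-GFP samples, and 90.9, 93.8, and 108 in Ad-h-NR4A2 samples. Ad-h-NR4A2 sample 28 lay apart at the top of its group, and this number was the exception among pairs, with Ckb lower in the other 5. Mean Ckb FPKM was 104 ± 5.34 and 96.1 ± 6.03 (SD, n = 6 per group), with an estimate of -0.12 on the log2 scale (SE 0.05). The adjusted p for Ckb was 0.0670 in limma and 0.0187 with the replicate block. Without Ad-h-NR4A2 sample 28 it was 0.0111, without Ad-GFP sample 26 it was 0.0473, and with quantile normalization 0.0151. With the replicate block, Ckb and Ckmt2 brought the number of genes with an adjusted p below 0.05 from 4 to 6 of 9, while 59.4% of all genes passed in that fit.

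Because FPKM are per length, the mRNAs of Ckm, Ckb, and Ckmt2 can be set side by side within a sample. Ckmt2 made up 53.8% ± 2.36 of their summed FPKM in Ad-GFP and 60.5% ± 2.87 in Ad-h-NR4A2 samples (SD, n = 6 per group), and its share was higher in all 6 pairs. The Ckm share was 42.7% ± 2.30 and 36.2% ± 2.74, lower in all 6 pairs. Ckb contributed 3.49% ± 0.232 and 3.23% ± 0.282. Thus the ratio of Ckmt2 to Ckm, examined after the values were seen, went from 1.27 ± 0.132 to 1.68 ± 0.209. Its highest Ad-GFP value (1.52 in sample 27) lay above the lowest Ad-h-NR4A2 value (1.42 in sample 28). The sum itself was 2998 ± 261 and 2982 ± 192 FPKM, so the groups differed in composition by more than in total. These shares describe the samples and were not tested.

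**Figure D2:**
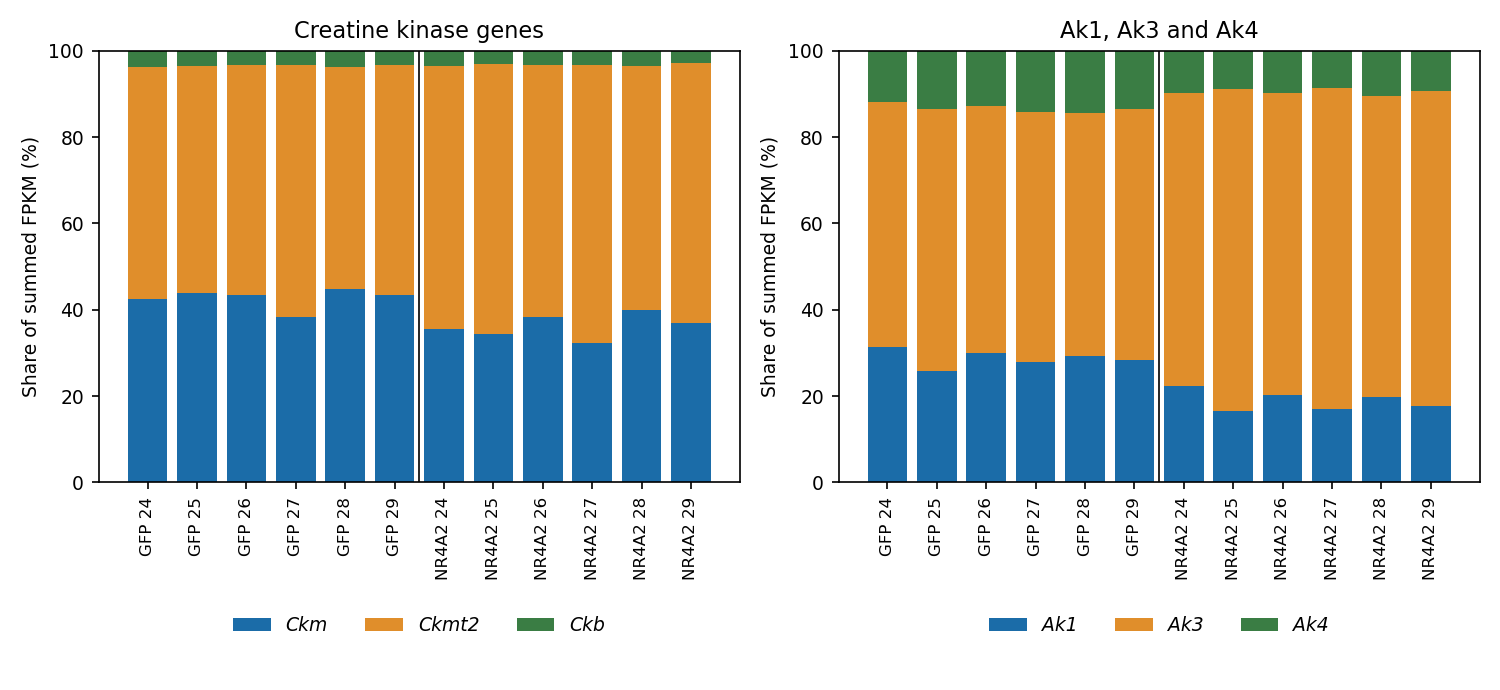
Share of each gene in the summed FPKM of Ckm, Ckmt2, and Ckb (left) and of Ak1, Ak3, and Ak4 (right), in percent, with 1 stacked bar per sample and Ad-GFP samples to the left of the vertical line. Ckmt2 averaged 53.8% and 60.5% of creatine kinase FPKM, and Ak1 averaged 28.8% and 18.9% of the sum of Ak1, Ak3, and Ak4, in Ad-GFP and Ad-h-NR4A2 samples.

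Creatine is made by the sequential action of Gatm and Gamt, chiefly outside the heart, and reaches the myocyte through the transporter Slc6a8. The synthesis genes differed by less than the spread between samples, whereas the transporter fell. Gatm (NM_031031, chromosome 3, 121249707 to 121266292), the arginine:glycine amidinotransferase, was close to the limit of detection. It had 21 to 100 fragments per sample and 0.834 ± 0.386 and 0.966 ± 0.612 FPKM (SD, n = 6 per group). Sample number 27 was highest in both groups, at 1.56 and 2.18 FPKM. For Gatm the estimate was 0.13 (SE 0.31, adjusted p = 0.767 in limma) and turned to -0.12 without Ad-h-NR4A2 sample 27 and to -0.0021 without Ad-GFP sample 24. Gamt (NM_012793, chromosome 7, 12484548 to 12487698), which methylates guanidinoacetate to creatine, had 15.1 to 21.3 FPKM in Ad-GFP and 17.0 to 20.7 in Ad-h-NR4A2 samples. Its estimate of 0.05 (95% interval -0.13 to 0.23, adjusted p = 0.659 in limma) included 0, with 3 of 6 pairs higher, and it became -0.0049 without Ad-GFP sample 28.

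Slc6a8 belongs to the other creatine genes and was named whatever its value. Its FPKM was 87.8 at the lowest, 122 at the median, and 146 at the highest in Ad-GFP samples, and 31.2, 46.8, and 61.4 in Ad-h-NR4A2 samples. The groups did not overlap, and each Ad-h-NR4A2 sample was at 0.320 to 0.437 of its partner. Slc6a8 thus changed by -1.39 on the log2 scale (SE 0.18, adjusted p = 3.46e-05, limma with Benjamini-Hochberg). The exact permutation p was 0.00216, the smallest that 6 against 6 allow when pairing is ignored. Ckmt1b, the ubiquitous mitochondrial creatine kinase and the remaining gene of that list, was scarce, at 0.856 ± 0.127 and 1.24 ± 0.326 FPKM. It rose by 0.46 on the log2 scale (adjusted p = 0.0268 in limma), and its ratio of means of 1.45 was below the limit. Single samples decided both criteria for Ckmt1b. It was called, at ratios of 1.505 to 1.511, without Ad-GFP sample 24 or Ad-h-NR4A2 sample 24 or 28, whereas its adjusted p in limma was 0.0533 to 0.0589 without Ad-GFP sample 28 or 29 or Ad-h-NR4A2 sample 26.

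Adenylate kinase genes changed in opposite directions by isoform. Ak1 and Ak4 fell, and Ak3 rose. Ak1 (NM_024349, chromosome 3, 16995977 to 17002963) encodes the main cytosolic adenylate kinase of muscle, which makes ATP and AMP from ADP. Ak1 FPKM was 69.7 at the lowest, 76.0 at the median, and 85.2 at the highest in Ad-GFP samples, and 45.5, 48.1, and 54.9 in Ad-h-NR4A2 samples. Every Ad-h-NR4A2 value lay below every Ad-GFP value, and the pair ratios were narrow, from 0.603 to 0.670. Mean Ak1 FPKM was 76.9 ± 5.54 and 48.9 ± 3.39 (SD, n = 6 per group), a 1.57-fold fall. This is -0.65 on the log2 scale (SE 0.06, adjusted p = 1.13e-06, limma with Benjamini-Hochberg). The exact permutation p was 0.00216, the smallest possible when pairing is ignored. With 1833 to 3507 fragments per sample, Ak1 was well covered.

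Ak4 (NM_017135, chromosome 5, 124130380 to 124186156) encodes a mitochondrial matrix member of the family with little adenylate kinase activity. Ak4 FPKM was 32.3 at the lowest, 34.5 at the median, and 40.9 at the highest in Ad-GFP samples, and 24.01, 24.63, and 24.98 in Ad-h-NR4A2 samples. The groups did not overlap, and the Ad-h-NR4A2 samples were closely spaced whatever the level of their Ad-GFP partner. Mean Ak4 FPKM was 35.8 ± 3.63 and 24.6 ± 0.383 (SD, n = 6 per group), or -0.53 on the log2 scale (SE 0.06, adjusted p = 9.95e-06 in limma; exact permutation p = 0.00216). This fall of 1.46-fold missed the limit of 1.5. The coefficient of variation of the Ad-h-NR4A2 samples was 1.56%, below the 5.73% that counting error alone gives at their 268 to 344 fragments. Fragment numbers are approximate for Ak4, whose transcript of 677 nucleotides is shorter than those from which depth was derived.

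Ak3 (NM_013218, chromosome 1, 254383082 to 254408283) encodes the matrix enzyme that uses GTP to phosphorylate AMP. Ak3 FPKM was 134 at the lowest, 152 at the median, and 177 at the highest in Ad-GFP samples, and 165, 184, and 215 in Ad-h-NR4A2 samples. The ranges overlapped, and all 6 pairs were higher with Ad-h-NR4A2, by 1.08 to 1.28 times. Ak3 changed by 0.26 on the log2 scale (SE 0.08, adjusted p = 0.0183 in limma; exact permutation p = 0.0195), with group means of 155 ± 15.3 and 186 ± 21.3 FPKM (SD, n = 6 per group).

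Over Ak1, Ak3, and Ak4 together, Ak1 made up 28.8% ± 1.91 of the summed FPKM in Ad-GFP and 18.9% ± 2.25 in Ad-h-NR4A2 samples (SD, n = 6 per group). The Ak3 share was 57.8% ± 1.54 and 71.6% ± 2.82, and the Ak4 share 13.4% ± 0.907 and 9.50% ± 0.732. None of the 3 shares overlapped between the groups. The ratio of Ak3 to Ak1, from 2.02 ± 0.189 to 3.84 ± 0.585, set the matrix enzyme against the cytosolic enzyme and was also examined after the values were seen. The sum of the 3 was 268 ± 20.8 and 260.02 ± 20.1 FPKM. As for the creatine kinases, composition differed more than the total, and neither was tested.

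Mb (NM_021588, chromosome 7, 118094391 to 118101622), the myoglobin gene, was the most abundant mRNA tested. Mb FPKM was 16837 at the lowest, 20599 at the median, and 22178 at the highest in Ad-GFP samples, and 15756, 19296, and 21021 in Ad-h-NR4A2 samples. The ranges overlapped almost wholly, since sample number 24 was lowest and number 25 highest in both groups, yet the Ad-h-NR4A2 sample was the lower of all 6 pairs, at 0.872 to 0.981 of its partner. The log2 fold change of -0.10 (95% interval -0.29 to 0.09) had an adjusted p of 0.413 in limma and of 0.0518 with the replicate block, so Mb did not pass in either fit. The Mb estimate was -0.15 without Ad-GFP sample 24 and -0.05 without Ad-h-NR4A2 sample 24, the lowest sample of each group. Mb took 2.80% ± 0.227 of all FPKM in Ad-GFP and 2.58% ± 0.228 in Ad-h-NR4A2 samples (SD, n = 6 per group). Of 6 other globin genes, only Cygb (cytoglobin) was above 0 in all samples. It fell from 10.8 to 8.64 FPKM, by -0.32 on the log2 scale (SE 0.09, adjusted p = 0.0091 in limma).

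The genes around these enzymes were taken from lists of creatine, nucleotide kinase, purine, AMPK, and globin genes, of which 41 of 48 were tested. Of these, 9 were called (4 lower and 5 higher), or 22.0%, against 15.2% of all genes, and 22 had an adjusted p below 0.05 (11 lower and 11 higher), or 53.7% against 40.9%. Among AMPK genes, 4 of 13 fell and 1 rose. The catalytic subunit Prkaa2, the main form in heart, went from 119 ± 5.55 to 78.3 ± 7.96 FPKM (SD, n = 6 per group) without overlap, or by -0.60 on the log2 scale (SE 0.06, adjusted p = 4.76e-06 in limma). Its ratio of means was at the limit, and without Ad-GFP sample 27 or Ad-h-NR4A2 sample 25, 27, or 29 the fall was 1.484- to 1.495-fold and the call was lost. Prkaa1, the other catalytic subunit, fell less, from 15.3 ± 0.730 to 13.7 ± 0.797 FPKM (log2 fold change -0.16, adjusted p = 0.0309 in limma).

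The noncatalytic AMPK subunits differed in direction. Prkab2, a scaffold subunit, rose from 12.9 ± 1.32 to 20.6 ± 2.46 FPKM without overlap (log2 fold change 0.66, SE 0.09, adjusted p = 4.82e-05 in limma). Prkab1, the other scaffold subunit, named after its value was seen, fell from 44.2 to 38.0 FPKM (log2 fold change -0.21, adjusted p = 0.0318 in limma). Prkag3, a nucleotide-binding subunit known mostly from skeletal muscle, fell from 1.87 ± 0.232 to 0.625 ± 0.182 FPKM, or from 79 to 147 fragments to 24 to 47 per sample. This was -1.48 on the log2 scale (SE 0.17, adjusted p = 1.37e-05 in limma). The upstream kinases Stk11 and Camkk2 and the other nucleotide-binding subunits Prkag1 and Prkag2 were among the 8 AMPK genes that did not pass. With the replicate block, 10 of the 13 AMPK genes passed, as Prkag2, Cab39, Cab39l, and Strada (higher) and Stradb (lower) were added, each with a change of at most 0.16 in size on the log2 scale. Over all other pathway lists, the block brought the number that passed from 22 to 28 of 41, where 59.4% of all genes passed in that fit.

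**Figure D3:**
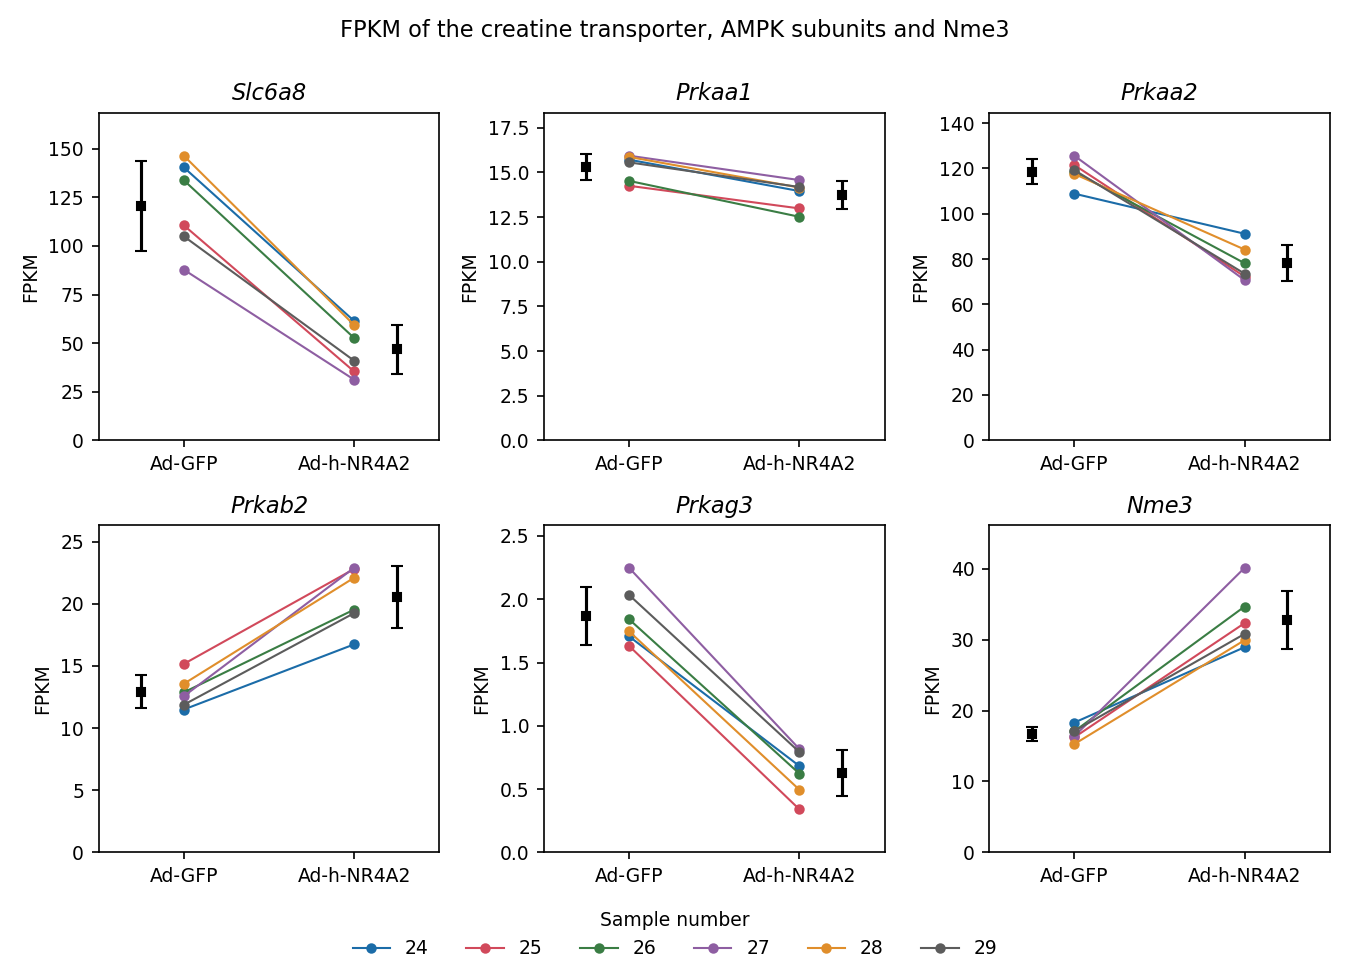
FPKM of the creatine transporter gene Slc6a8, 4 AMPK subunit genes, and Nme3 in each of the 12 samples, on axes that start at 0. Lines join samples with the same number and black squares with bars are the mean ± SD of 6 samples. Slc6a8, Prkaa2, Prkag3, Prkab2, and Nme3 did not overlap between the groups, and Prkaa1 did.

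Among the other nucleotide kinases, 2 of 11 fell (Nme6 and Cmpk2) and 4 rose (Guk1, Nme3, Nme4, and Cmpk1) at an adjusted p below 0.05. The shares of all genes tested were 21.7% lower and 19.3% higher. Of the 11 kinases, only Nme3 and Cmpk2 were called. Nme3, a nucleoside diphosphate kinase, rose from 16.7 ± 1.03 to 32.8 ± 4.11 FPKM (SD, n = 6 per group), by 0.96 on the log2 scale (SE 0.08, adjusted p = 4.52e-07 in limma). Cmpk2, a mitochondrial pyrimidine nucleotide kinase, fell from 0.660 ± 0.172 to 0.332 ± 0.0932 FPKM, at 15 to 73 fragments per sample (log2 fold change -0.81, adjusted p = 0.00287 in limma).

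Of 14 genes that handle AMP and purines, 3 fell (Ampd3, Adk, and Nt5c3a) and 5 rose (Adsl, Adss, Aprt, Nt5c, and Nt5e) at an adjusted p below 0.05. Over all genes tested, 21.7% passed lower and 19.3% higher. Aprt, which salvages adenine to AMP, went from 160 ± 19.0 to 243 ± 25.5 FPKM (log2 fold change 0.61, SE 0.09, adjusted p = 8.82e-05 in limma). Its ratio of 1.52 fell below the limit without Ad-GFP sample 28 (1.46), without Ad-h-NR4A2 sample 27 (1.47), and with quantile normalization (1.49). Nt5e, the cell surface enzyme that turns AMP into adenosine, rose from 10.6 ± 4.13 to 20.0 ± 8.08 FPKM with overlapping groups, higher in 6 of 6 pairs (log2 fold change 0.91, adjusted p = 0.0159 in limma). Nt5c, a cytosolic nucleotidase, rose from 1.36 ± 0.501 to 3.73 ± 1.78 FPKM (log2 fold change 1.31, adjusted p = 0.00495 in limma). It had 11 to 77 fragments per sample and overlaps Armc7 on the chromosome, so its level is uncertain. Hprt1, a purine salvage gene named after its values were seen, did not pass in its most abundant transcript (ratio 1.41, adjusted p = 0.109 in limma). That transcript was scarce, at 0.307 FPKM in Ad-GFP and 0.432 FPKM in Ad-h-NR4A2 samples. Hprt1 was called higher with its transcripts summed (ratio 1.56, adjusted p = 0.0174 in limma) and without Ad-h-NR4A2 sample 24 (1.52, adjusted p = 0.0336). With every transcript tested by itself, a less abundant Hprt1 transcript was called higher (ratio 1.80, adjusted p = 0.0050 in limma). Ampd3, an AMP deaminase, and Adk, the adenosine kinase, fell by 0.47 and 0.37 on the log2 scale. The members of these 2 lists that passed but were not called were named after their values were seen.

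**Figure D4:**
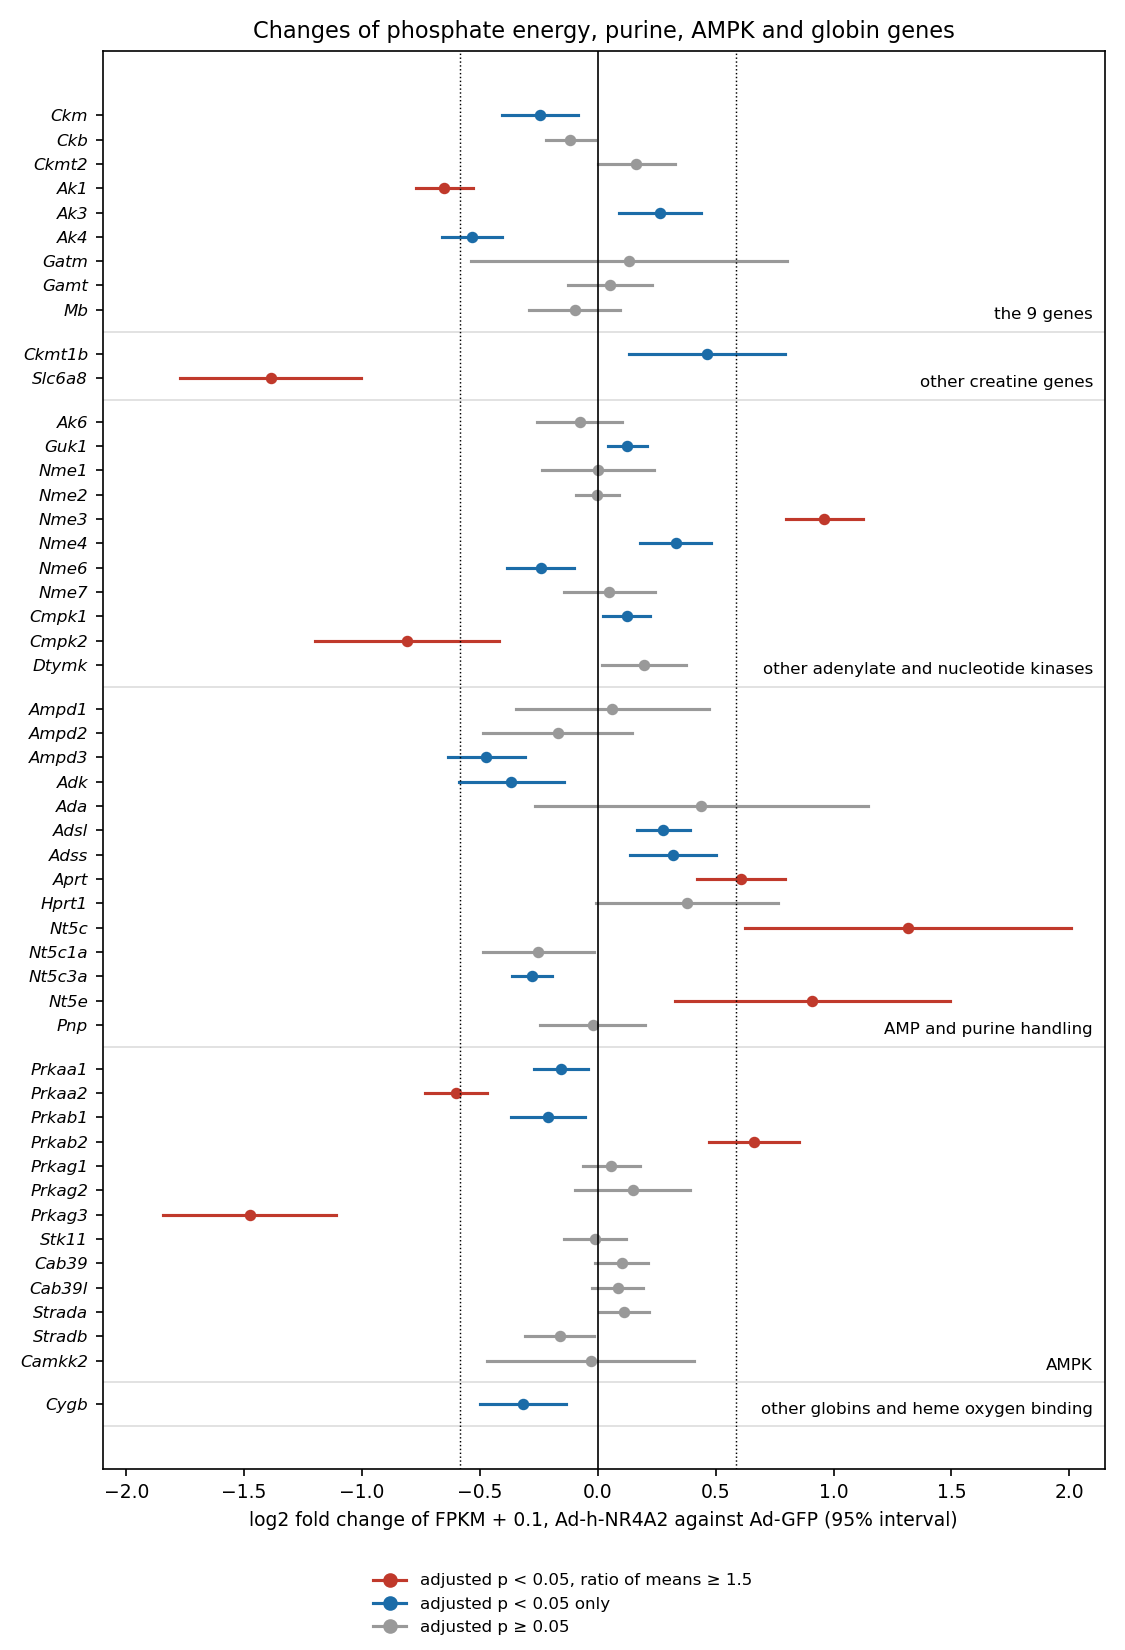
Log2 fold change of FPKM + 0.1 of Ad-h-NR4A2 against Ad-GFP samples (x axis, points with 95% intervals) for the 9 genes and the 41 other pathway genes tested. Dotted lines mark a 1.5-fold change, red marks called genes, blue an adjusted p below 0.05 only, and gray neither. Slc6a8 (-1.39) and Prkag3 (-1.48) lay farthest to the left, and Ak1 (-0.65) lay farthest left of the 9 genes.

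To show which genes varied most like each of the 9 over the 12 samples, log2 values were centered on each gene's own mean and compared by their root-mean-square difference, over 8978 genes whose FPKM averaged at least 1. This measure includes the difference between groups and describes these samples only. Closest to Ckm were Tango2 (0.072), Tnnt2 (0.079), and Arhgef7 (0.083). Closest to Ckmt2 were LOC499602 (0.046), Slc25a11 (0.057), and Cyc1 (0.058), and to Ckb Afg3l1 (0.052), Dusp3 (0.056), and Exoc5 (0.057). For Ak1 the order was Gmpr (0.065), Hrc (0.069), and Trim55 (0.074). For Ak3 it was Tmem70 (0.065), Vdac2 (0.069), and Ehd3 (0.071), and for Ak4 Zfp91 (0.063), Rock1 (0.078), and Myzap (0.079). Mb varied most like Ndufv3 (0.060), Me3 (0.067), and Pam (0.068). Gamt was nearest to Hint3 (0.081), Commd4 (0.085), and Snapin (0.087). Gatm had no gene as close, its nearest being Mcm6 (0.273), Etv1 (0.292), and Ccnd1 (0.315).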

How the data were processed

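RNA sequencing covered 12 ARVM samples. Per the paper and the labels, the authors made stranded mRNA libraries, sequenced them in 1 pooled paired-end run, aligned reads to Rn5 with STAR, and obtained FPKM of RefSeq transcripts from Cufflinks. These FPKM, as deposited by the authors, were used unchanged. Confidence limits in the files equal the FPKM in 225016 of 225024 values and were not used.

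A gene with several transcripts was represented by the one with the highest mean FPKM. Log2(FPKM + 0.1) of 10950 genes above 0 in all samples was compared with limma (version 3.58.1, lmFit followed by eBayes with a mean trend, R 4.3.3), 2-sided, unpaired as in the study, with Benjamini-Hochberg adjustment. In simulated data this fit recovered 192 of 200 genes changed by 1.5 on the log2 scale and 143 of 200 changed by 0.6. The false calls there were 12 and 9. Simulated samples were independent and held no pairs, unlike the samples here. Exact permutation tests enumerated every division of the samples in R, without regard to sample number. The numbers are taken as pairs below, and these tests do not account for that. Permutation within pairs was not run, so the permutation p-values describe unpaired divisions only. Tables were made with pandas 2.3.3 and NumPy 2.4.6 (Python 3.11.15) and plots with Matplotlib 3.10.9. A pseudocount understates the change of low genes. The pairing was checked from deviations from the group means, in which same-numbered samples correlated at 0.347 to 0.623. Each Ad-GFP sample correlated best with the Ad-h-NR4A2 sample of its own number, and the reverse was not checked. The numbers were therefore taken as pairs, and a fit with the number as a replicate block was the alternative. The labels do not say that samples of a group came from separate rats, whereas the study's design text names different rats.

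Depth was derived from transcripts of at least 800 nucleotides, where 99.22 to 99.81% of values of at most 6 fragments were whole within 0.05 of a fragment. Fragment numbers cover counting error only. Promoter letters come from RefSeq on GRCr8, whereas transcript coordinates are on Rn5, and neither was converted.

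All 9 genes are named, as are other pathway genes that were called, Slc6a8, Prkaa1, and Prkaa2 whatever their values, and the 3 genes most like each of the 9. Of the genes to be named, 1 is not reported here, and it was left out of the lists and of the adenylate kinase shares. The 9 genes and the lists were chosen with earlier results of these data known. Alternatives were pseudocounts of 1 and 0.01, no filter or an average FPKM of 1 or more, quantile normalization, the TPM scale, no trend, the replicate block, other treatments of genes with several transcripts, other ratio limits, and each sample left out. The count of genes with an adjusted p below 0.05 at any ratio was added after seeing the data.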

Additional observations from a re-analysis of the deposited data

Results flagged for a closer look

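Over 72 groups of 6 samples (24 genes and 12 shares, sums, or ratios), 5 had a highest or lowest sample farther from the rest than Dixon's 95% limit, and chance alone flags about 1 in 20 groups. Ckb in Ad-h-NR4A2 sample 28 was 107.782 FPKM, against a group median of 93.8. Gatm in Ad-h-NR4A2 sample 27 was 2.18 FPKM, against a median of 0.733. Myh6 in Ad-GFP sample 28 was 953 FPKM, against a median of 1187. In Ad-GFP sample 27, the Ckmt2 share of creatine kinase FPKM was 58.3%, against a median of 53.4%, and the ratio of Ckmt2 to Ckm was 1.52, against a median of 1.23. The Ckb, Ckmt2, and Gatm results without these samples are given with the genes above.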

How the results depend on the processing

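The number of called genes depended mainly on the ratio limit. Without a limit, 4484 genes in all, 4 of the 9 genes, and 22 of the other pathway genes passed, and at a limit of 2 the numbers were 803, 0, and 3, against 1662, 1, and 9 at a limit of 1.5. With the replicate block, 1825 genes in all, 1 of the 9, and 9 other pathway genes were called, and the number of the 9 genes with an adjusted p below 0.05 went from 4 to 6 through Ckb and Ckmt2. The block changed no call among the 9 genes, and no other of them crossed an adjusted p of 0.05. Among the other pathway genes it brought 6 more past an adjusted p of 0.05 (28 against 22) and lost none. With transcripts summed or tested singly, Hprt1 made 10 other pathway genes called. With 1 sample left out at a time, 1541 to 1769 genes in all and 7 to 11 other pathway genes were called, Ak1 was called each time, and 4 to 5 of the 9 genes had an adjusted p below 0.05. The differences in share ranged from -0.336 to -0.190 percentage points for Ckb and from -10.5 to -9.32 for Ak1. The log2 fold change of Gatm ranged from -0.117 to 0.315 and turned in 2 of these fits, at -0.00208 without Ad-GFP sample 24 and -0.117 without Ad-h-NR4A2 sample 27. That of Gamt ranged from -0.0049 to 0.0947 and that of Mb from -0.149 to -0.0471. Quantile normalization sets the highest gene equal in all samples, so that Mb had a change of 0 there by construction. Apart from the ratio limit, the other settings kept direction and side of the threshold for Ckm, Ak1, Ak3, and Ak4, and Ckb alone passed in addition with quantile normalization. Gatm, Nt5c, Cmpk2, and Prkag3 rested on few fragments, but for Gatm counting error alone gives a coefficient of variation of 15.3% and 14.4% in Ad-GFP and Ad-h-NR4A2 samples, against 46.3% and 63.4% observed.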
